A study of Mus musculus with 15 samples.

Results

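The genes described here were 42 genes of DNA replication and deoxynucleotide synthesis that are used at the G1/S transition and in S phase, out of 25292 genes in the count table. They were chosen by symbol: a row belonged to the set when its Ensembl gene ID carried a member's symbol in GENCODE M21. Poly(A) RNA of mouse embryonic pancreas was sequenced from 15 libraries, with 3 biological replicates in each of 5 groups. Up to 3 organs were pooled for a library, all from C57/Bl6J embryos. Pancreata at 14.5 dpc came from wild-type embryos (wt) or from embryos labelled S1pr2 null, in which exon 1 of this sphingosine-1-phosphate receptor gene carries a Neo cassette. The other 3 groups were wild-type dorsal pancreatic buds of the same stage, kept for 2 days at an air to liquid interface. They were grown in standard medium (control), with 15 uM JTE013, an antagonist of S1pr2 (JTE), or with 15 uM JTE013 and 50 ng/ml CTGF, a secreted matricellular protein (JTE + CTGF). The questions were whether these genes differ where S1pr2 is lost, where it is blocked by the antagonist, and where CTGF is added to the antagonist.

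Replication of DNA starts with licensing. In G1 phase the origin recognition complex, Cdc6 and Cdt1 load the ring-shaped Mcm2 to Mcm7 helicase onto origins, and Gmnn (geminin) later blocks Cdt1 so that no origin is licensed again. The helicase is switched on by Cdc45, the GINS complex and Mcm10, polymerases then copy the strands on the sliding clamp Pcna, and ribonucleotide reductase, Tyms and Tk1 supply the deoxynucleotides. Most of these genes are known targets of E2F factors and are transcribed as cells pass from G1 into S phase. In the embryonic pancreas, proliferating progenitors and mesenchyme carry this programme, while cells that have entered the endocrine lineage largely leave the cell cycle.

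Promoter sequences of RefSeq (GRCm38.p6, 250 bases before to 50 bases after each start site) were found for 34 of the 42 genes. The E2F letters TTTCCCGC, TTTGGCGC, TTTCGCGC and TTTGCCGC were searched on both strands. At least 1 match lay in the windows of 14 of the 34 genes (41.2%), against 704 of 27025 genes with a window (2.60%), and at least 2 matches lay in those of 5 (14.7%), against 29 (0.107%). CCAAT, on either strand, was present in 22 of the 34 genes (64.7%) and in 11096 of all genes (41.1%). The stretches below are shown because they carry such letters ahead of the start sites of a helicase subunit pair, of both licensing factors with a match there and of a GINS subunit. Each runs 5′ to 3′ on the gene's strand, from 20 bases before the first match to the last base before the start site, with the E2F letters in capitals.
Mcm5: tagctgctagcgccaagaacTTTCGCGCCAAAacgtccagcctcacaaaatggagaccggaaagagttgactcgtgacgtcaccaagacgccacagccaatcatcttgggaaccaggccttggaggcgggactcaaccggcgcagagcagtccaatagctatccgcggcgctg
Mcm6: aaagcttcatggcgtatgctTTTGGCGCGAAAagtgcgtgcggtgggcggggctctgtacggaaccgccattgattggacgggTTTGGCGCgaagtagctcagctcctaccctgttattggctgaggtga
Cdc6: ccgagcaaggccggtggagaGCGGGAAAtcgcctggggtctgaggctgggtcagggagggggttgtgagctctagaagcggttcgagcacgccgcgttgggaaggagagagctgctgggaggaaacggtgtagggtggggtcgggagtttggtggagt
Orc1: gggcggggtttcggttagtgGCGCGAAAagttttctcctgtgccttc
Gins3: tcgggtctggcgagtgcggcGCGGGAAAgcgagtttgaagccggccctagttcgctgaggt
The Mcm5 stretch is chr8:75109336-75109508 (plus strand), that of Mcm6 chr1:128359706-128359835 (minus strand), that of Cdc6 chr11:98907993-98908150 (plus strand), that of Orc1 chr4:108579407-108579453 (plus strand) and that of Gins3 chr8:95633498-95633558 (plus strand). In the Mcm5 and Mcm6 stretches a pair of matches on opposite strands overlapped. A match is a description of letters and not a measured binding site.

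Library totals lay between 11402804 and 13828737 reads. The 3 JTE + CTGF libraries had the lowest totals, 11402804 to 11658845, and the other groups overlapped. JTE library 3 stood apart from its replicates, with a chi-square per gene of 17.2 and 23.2 against JTE libraries 1 and 2, which differed from each other by 3.01. To a lesser degree control library 3 did so too, with 10.2 and 8.16 against control libraries 1 and 2, which differed by 5.37. Epithelial markers such as Pdx1 and Sox9 and mesenchymal markers such as Col1a1 were detected in every group, with no marker of either list at 0. In the libraries labelled S1pr2 null the S1pr2 gene itself had 1486, 1368 and 1609 reads, against 858, 796 and 812 in wt. Its count, taken over the whole gene, was thus not lower under the null label. The paper reports a western blot in which null pancreata of the same allele and stage lacked the receptor protein. A whole-gene read count does not measure protein, so the count does not contradict that blot. Results for these libraries rest on their label and on the blot. All 42 genes passed the filter on low counts, with 50 to 4449 reads per library.

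Normalised reads are reads scaled by the effective size of each library to the average size of all libraries. Summed over the 42 genes, they came to 57729, 58340 and 58533 in the wt libraries and 58516, 57681 and 56619 in the libraries labelled S1pr2 null. The sums were 35515, 35678 and 39017 in control explants, 25651, 23974 and 25533 with JTE and 20633, 23961 and 22081 with JTE + CTGF. Fresh pancreata were thus above every explant library, control explants were above every explant library with the antagonist, and the lowest JTE library was just above the highest JTE + CTGF library. As a share of all reads the set took 0.487% to 0.498% in fresh pancreata, 0.269% to 0.309% in control explants, 0.178% to 0.202% with JTE and 0.155% to 0.180% with JTE + CTGF. Each of the 42 genes had its highest group mean in a fresh group, 24 in wt and 18 in the libraries labelled S1pr2 null, and its lowest in a group with the antagonist, 35 in JTE + CTGF and 7 in JTE. Among the 16245 genes tested, 30.5% had that order of highest and lowest groups. In bulk RNA, fewer cells in S phase and less RNA of these genes per cell cannot be told apart.

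**Figure D1:**
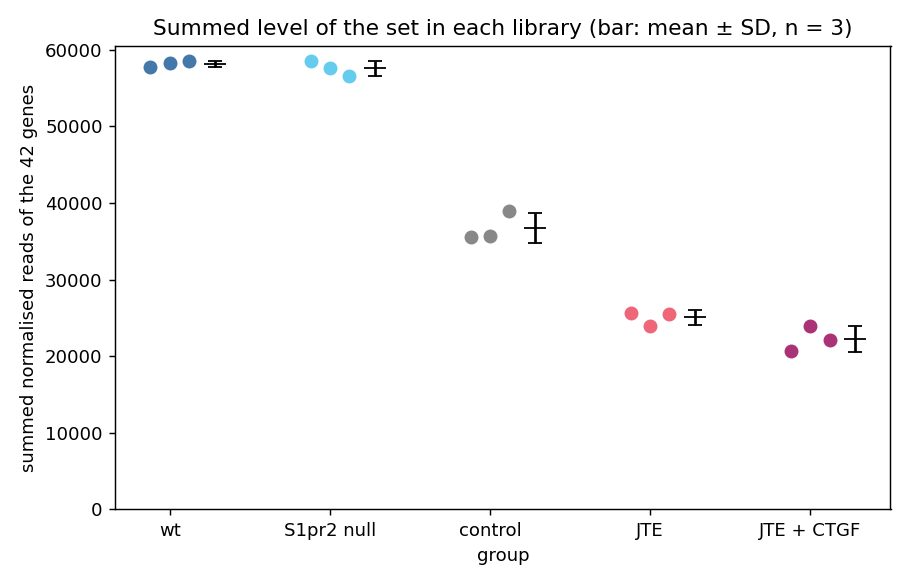
Summed normalised reads of the 42 genes in each library (points), with the mean and SD of each group of 3 libraries (black), on a linear axis from 0. The wt libraries lie between 57729 and 58533, the control explants between 35515 and 39017, and the JTE + CTGF explants between 20633 and 23961.

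A gene was called at an adjusted p below 0.05 in the quasi-likelihood F-test of edgeR, with Benjamini-Hochberg adjustment over all 16245 genes. Differences between groups are given below as log2 fold changes, with their SE after the ± sign. With JTE, 38 of the 42 genes were lower than in control explants and 0 were higher, while 26.2% of all genes were lower and 25.9% higher. For the libraries labelled S1pr2 null against wt, 3 genes were higher and 3 lower, with 12.6% of all genes higher and 13.3% lower. Control explants against wt gave 40 genes lower and 0 higher, against 29.3% and 28.5% of all genes. JTE + CTGF against JTE gave 12 genes lower and 1 higher (16.8% and 13.6% of all genes), and JTE + CTGF against control gave 38 lower and 0 higher (33.0% and 28.1%). At an unadjusted p below 0.05, and likewise with DESeq2, the count of genes higher was also 0 in JTE against control, in JTE + CTGF against control and in control explants against wt.

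**Figure D2:**
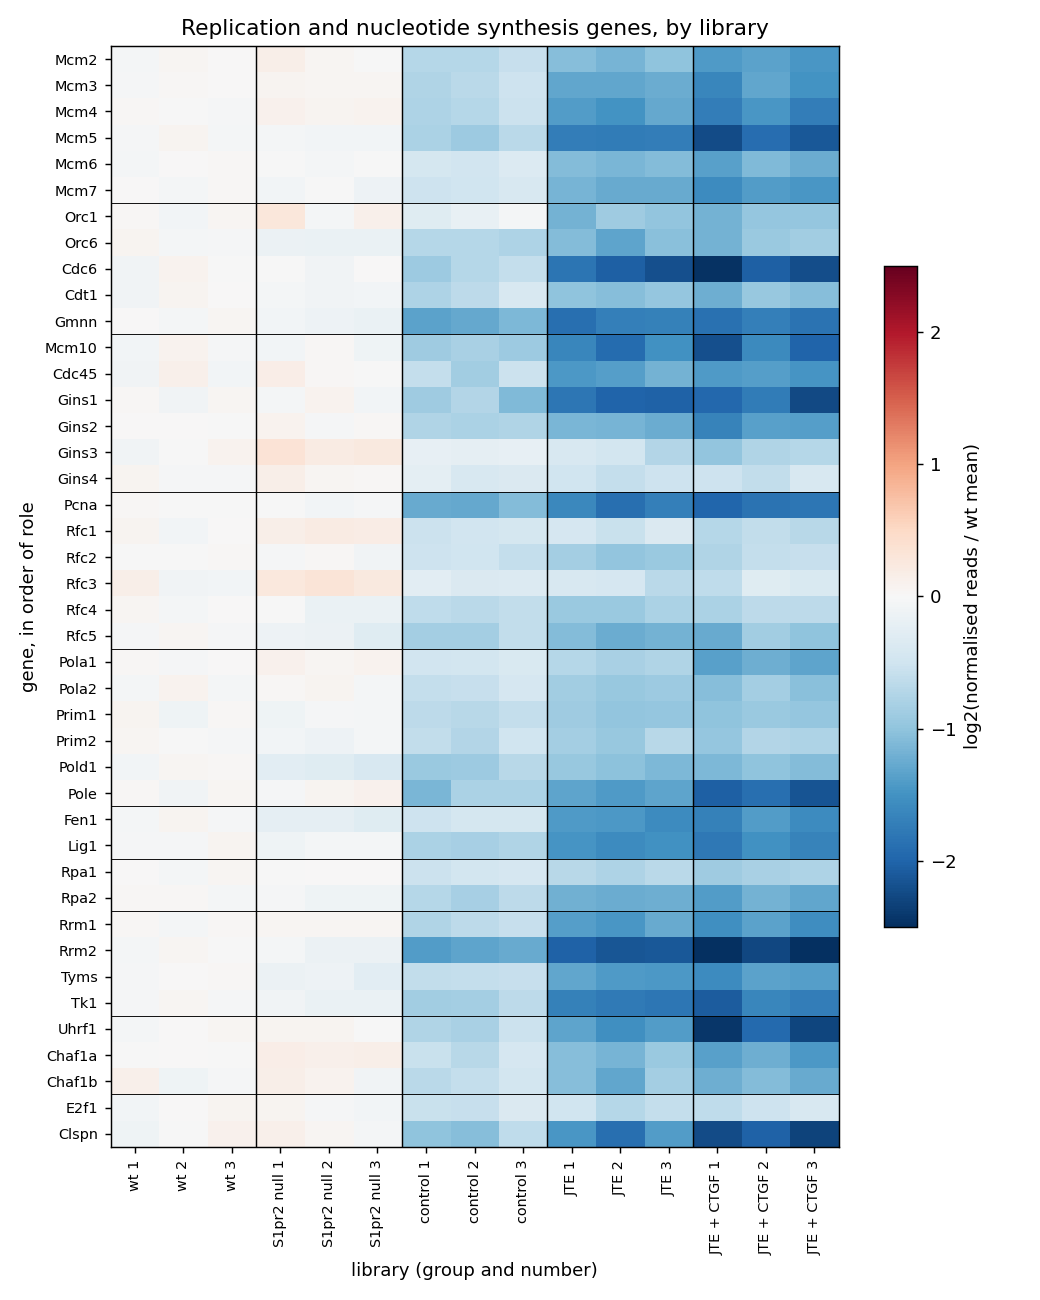
Log2 of the normalised reads of each of the 42 genes (rows, in order of role) in each of the 15 libraries (columns), relative to the gene's mean in wt. The colour deepens from fresh pancreata to control explants and again to the explants with JTE, with Rrm2, Cdc6, Uhrf1 and Clspn lowest in JTE + CTGF, while Rfc1, Rfc3, Gins4 and E2f1 stay pale.

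The 6 helicase subunits were among the most abundant genes of the set. Per kilobase of counted exon, the level in wt was 1297 normalised reads for Mcm6, 1002 for Mcm5, 959.8 for Mcm3, 932 for Mcm2, 751 for Mcm4 and 628 for Mcm7. Mcm5 had 3377, 3577 and 3332 normalised reads in the wt libraries and 3325, 3282 and 3255 in those labelled S1pr2 null. Control explants held 1992, 1836 and 2135, JTE explants 1030.5, 1023 and 1038, and JTE + CTGF explants 728, 917 and 785. The explant groups did not overlap, while the wt libraries lay just above those labelled S1pr2 null. Mcm5 was lower with JTE than in control at a log2 fold change of -0.95 ± 0.07 (SE, adjusted p = 1.13e-08), and lower again with JTE + CTGF than with JTE, -0.35 ± 0.073 (SE, adjusted p = 0.0017). Of the 50-base words of Mcm7, 23.3% occur in other genes. All 6 subunits were lower with JTE, from -0.41 (Mcm2) to -0.95 (Mcm5), and 4 of them, Mcm2, Mcm4, Mcm5 and Mcm7, were lower still with CTGF. The call of Mcm4 in that last comparison was lost without JTE library 1 (adjusted p = 0.0547), without JTE library 3 (adjusted p = 0.203) and without JTE + CTGF library 1 (adjusted p = 0.10) or 3 (adjusted p = 0.127). For Mcm3 and Mcm6 the CTGF difference was -0.19 and -0.13 and was not called, but both were called without JTE + CTGF library 2 (adjusted p = 0.00505 and 0.0191). In the libraries labelled S1pr2 null all 6 lay between -0.07 and 0.09 of wt on the log2 scale and none was called.

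Cdc6, the ATPase that recruits the helicase to origins, had the largest fall of the set with JTE. Cdc6 had 581, 659.9 and 609 normalised reads in the wt libraries and 609, 579 and 625 in those labelled S1pr2 null. Control explants held 330.2, 374 and 407, JTE explants 175, 150.1 and 135, and JTE + CTGF explants 111, 150.0 and 133. The JTE libraries lay below every control library and overlapped the JTE + CTGF libraries. The log2 fold change was -1.28 ± 0.11 (SE, adjusted p = 6.43e-08) with JTE, -1.50 ± 0.11 (SE, adjusted p = 1.14e-08) with JTE + CTGF against control and -0.22 ± 0.13 (SE, adjusted p = 0.208) for CTGF added to JTE, the last not called. Cdt1 had 1168, 1305 and 1250.0 normalised reads in the wt libraries and 1202, 1163 and 1177 in those labelled S1pr2 null. Control explants held 728, 787 and 941, JTE explants 621, 595 and 638, and JTE + CTGF explants 532, 641 and 596. This partner of Cdc6 in helicase loading was lower in both antagonist groups than in any control library, at -0.41 ± 0.083 (SE, adjusted p = 0.000583) with JTE. Orc1, the origin recognition subunit that cycles with G1, was the least abundant member at 37.2 normalised reads per kilobase in wt. Orc1 had 132, 123 and 133 normalised reads in the wt libraries and 157, 125 and 141 in those labelled S1pr2 null. Control explants held 104, 113 and 124, JTE explants 57.1, 69.4 and 65.1, and JTE + CTGF explants 57.2, 66.4 and 66.3. The control and fresh libraries overlapped, and the antagonist libraries lay below both. Orc1 was lower with JTE at -0.83 ± 0.13 (SE, adjusted p = 5.38e-05) but was not called between control explants and wt, at -0.19 (95% interval -0.44 to 0.06). Orc6, a further origin recognition subunit, was lower with JTE (-0.41) and in control explants against wt (-0.74). Its per-kilobase level was 416 in wt and 210.0 in JTE + CTGF.

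Gmnn, the inhibitor of Cdt1, was lower in explants than in fresh pancreata and lower again with JTE. Gmnn had 786, 754 and 806 normalised reads in the wt libraries and 741, 712 and 697 in those labelled S1pr2 null. Control explants held 311, 324 and 359, JTE explants 212, 239 and 244, and JTE + CTGF explants 216, 239 and 217. Explant and fresh libraries lay far apart, and the JTE and JTE + CTGF libraries overlapped. The log2 fold change was -1.24 ± 0.068 (SE, adjusted p = 1.75e-10) for control explants against wt and -0.52 ± 0.076 (SE, adjusted p = 2.53e-05) for JTE against control. These steps share the control libraries.

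Among the activators of the helicase, Gins1 and Mcm10 fell most. Cdc45 had 421, 492 and 429.8 normalised reads in the wt libraries and 500.5, 459 and 443 in those labelled S1pr2 null. Control explants held 295, 244 and 309, JTE explants 165, 172 and 198, and JTE + CTGF explants 168, 173 and 162. Cdc45, which binds the loaded helicase, was lower in each JTE library than in each control library, at -0.66 ± 0.1 (SE, adjusted p = 4.42e-05). Gins1 had 294, 270.1 and 297 normalised reads in the wt libraries and 279, 307 and 274 in those labelled S1pr2 null. Control explants held 154, 173 and 133, JTE explants 82.5, 71.5 and 70.7, and JTE + CTGF explants 73.2, 85.9 and 60.4. Gins1 was lower with JTE at -1.04 ± 0.13 (SE, adjusted p = 4.89e-06) and did not move further with CTGF beyond its spread, at -0.03 (95% interval -0.34 to 0.28). Gins3 had 179, 187 and 199.9 normalised reads in the wt libraries and 239, 219 and 225 in those labelled S1pr2 null. Control explants held 165, 162 and 163, JTE explants 144, 138 and 113, and JTE + CTGF explants 96, 112 and 115. Gins3 was thus above wt in each library labelled S1pr2 null, at 0.27 ± 0.097 (SE, adjusted p = 0.0485). That call was lost on leaving out any of the 6 libraries, with adjusted p from 0.0611 to 0.151, and with DESeq2 (adjusted p = 0.0909). Its fall with JTE was -0.32 ± 0.11 (SE, adjusted p = 0.0187), a call that was lost without JTE library 3 (adjusted p = 0.111). Mcm10, a scaffold of the active helicase, was lower with JTE at -0.80 ± 0.12 (SE, adjusted p = 2.38e-05), Gins2 at -0.42 and Gins4 at -0.20. The Gins4 call was lost without control library 1 (adjusted p = 0.109) or JTE library 2 (adjusted p = 0.0861). Per kilobase in wt, Gins4 had 364 normalised reads, Cdc45 199, Gins1 189.5, Gins2 188, Gins3 78.2 and Mcm10 78.1. Of the counted exon bases of Gins2, 67.3% are also covered by Gse1 on the other strand, and strand use in the counting was not stated.

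Of the sliding clamp and its 5 loader subunits, 4 genes were lower with JTE. Pcna had 1754, 1725 and 1708 normalised reads in the wt libraries and 1727, 1651 and 1693 in those labelled S1pr2 null. Control explants held 718, 711 and 819.6, JTE explants 566, 466 and 530.1, and JTE + CTGF explants 438, 482 and 495. Pcna fell most between fresh pancreas and explant, at -1.21 ± 0.067 (SE, adjusted p = 2.12e-10), and again with JTE at -0.53 ± 0.072 (SE, adjusted p = 1.17e-05). Of the 50-base words of Pcna, 19.1% occur in 1 other gene. Rfc1 had 1827, 1662 and 1752 normalised reads in the wt libraries and 1934, 2018 and 1990.4 in those labelled S1pr2 null. Control explants held 1209, 1249 and 1295, JTE explants 1309.8, 1195 and 1361, and JTE + CTGF explants 1072, 1147 and 1078. Rfc1, the large subunit of the loader, was the one member with a positive value for JTE, 0.04 (95% interval -0.08 to 0.16), and was not called there. It was higher in the libraries labelled S1pr2 null, at 0.18 ± 0.054 (SE, adjusted p = 0.0204), and lower with CTGF added to JTE, at -0.23 ± 0.057 (SE, adjusted p = 0.00562). The first call was lost without wt library 2 or 3 or without null library 2 or 3 (adjusted p from 0.0564 to 0.106), and the second without JTE library 3 (adjusted p = 0.0679). Rfc2 had 1318, 1308 and 1349 normalised reads in the wt libraries and 1297, 1356 and 1243 in those labelled S1pr2 null. Control explants held 922, 935 and 882, JTE explants 736, 671 and 698, and JTE + CTGF explants 790.1, 873 and 886. Rfc2 was the one member that was higher with CTGF, 0.28 ± 0.057 (SE, adjusted p = 0.00157), and all JTE + CTGF libraries lay above all JTE libraries. Against control, JTE + CTGF was -0.10 (95% interval -0.22 to 0.01), which was not called, while JTE alone was lower at -0.38 ± 0.056 (SE, adjusted p = 2.83e-05). Of its 50-base words, 15.95% occur in other genes. Rfc3 had 655, 558 and 564 normalised reads in the wt libraries and 709, 739.6 and 703 in those labelled S1pr2 null. Control explants held 493, 461 and 468, JTE explants 449, 444 and 373, and JTE + CTGF explants 382, 479.8 and 456. Control and JTE libraries did not overlap for Rfc3, yet the difference of -0.17 (95% interval -0.36 to 0.02) was not called. It was higher in the libraries labelled S1pr2 null at 0.27 ± 0.084 (SE, adjusted p = 0.0223), a call that was lost without wt library 2 (adjusted p = 0.102) or 3 (adjusted p = 0.0936) or without null library 2 (adjusted p = 0.0801). Rfc4 and Rfc5 were lower with JTE at -0.23 and -0.40 on the log2 scale. Per kilobase in wt, the loader subunits had 873 (Rfc2), 391 (Rfc4), 291 (Rfc1), 189 (Rfc5) and 164 (Rfc3) normalised reads, and Pcna had 720.4.

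Of the 6 polymerase and primase genes, 5 were lower with JTE and 2 were lower again with CTGF. Pola1 had 945, 906 and 931 normalised reads in the wt libraries and 995, 956 and 985 in those labelled S1pr2 null. Control explants held 664, 677 and 713, JTE explants 569, 529 and 547, and JTE + CTGF explants 360.2, 398 and 372. Pola1, the catalytic subunit of the primase-polymerase that starts each strand, was lower with JTE at -0.32 ± 0.054 (SE, adjusted p = 9.25e-05). With CTGF added it was lower again at -0.54 ± 0.057 (SE, adjusted p = 3.9e-06), and the 3 explant groups did not overlap. Pole had 826, 763 and 838 normalised reads in the wt libraries and 795, 849 and 866 in those labelled S1pr2 null. Control explants held 367, 468 and 469, JTE explants 324, 302 and 326, and JTE + CTGF explants 197, 219.9 and 181. Pole, the leading-strand polymerase, was also lower in both steps, with -0.46 ± 0.09 (SE, adjusted p = 0.000417) for JTE and -0.67 ± 0.1 (SE, adjusted p = 9.59e-05) for CTGF added. Pold1 had 1619, 1771 and 1734 normalised reads in the wt libraries and 1423, 1379.5 and 1299.7 in those labelled S1pr2 null. Control explants held 897, 905 and 1056, JTE explants 889.8, 835 and 789, and JTE + CTGF explants 781, 849.6 and 808. Pold1, the lagging-strand polymerase, was lower in the libraries labelled S1pr2 null, at -0.32 ± 0.065 (SE, adjusted p = 0.00159), and its CTGF difference of -0.04 (95% interval -0.19 to 0.10) was not called. Its JTE difference, -0.19 ± 0.069 (SE, adjusted p = 0.0314), was called but lost its call without control library 3 (adjusted p = 0.204), JTE library 2 (adjusted p = 0.0701) or JTE library 3 (adjusted p = 0.121). Pola2, the second subunit of the primase-polymerase, and the primase subunit Prim1 were lower with JTE at -0.38 and -0.30. The other primase subunit, Prim2, was at -0.21 with an adjusted p of 0.0513, which crossed the threshold without control library 2 (adjusted p = 0.0292) or without JTE library 3 (adjusted p = 0.0187). Per kilobase in wt, these genes had 351 (Pold1), 296 (Pola2), 200.3 (Prim2), 183 (Prim1), 105 (Pola1) and 84.4 (Pole) normalised reads.

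**Figure D3:**
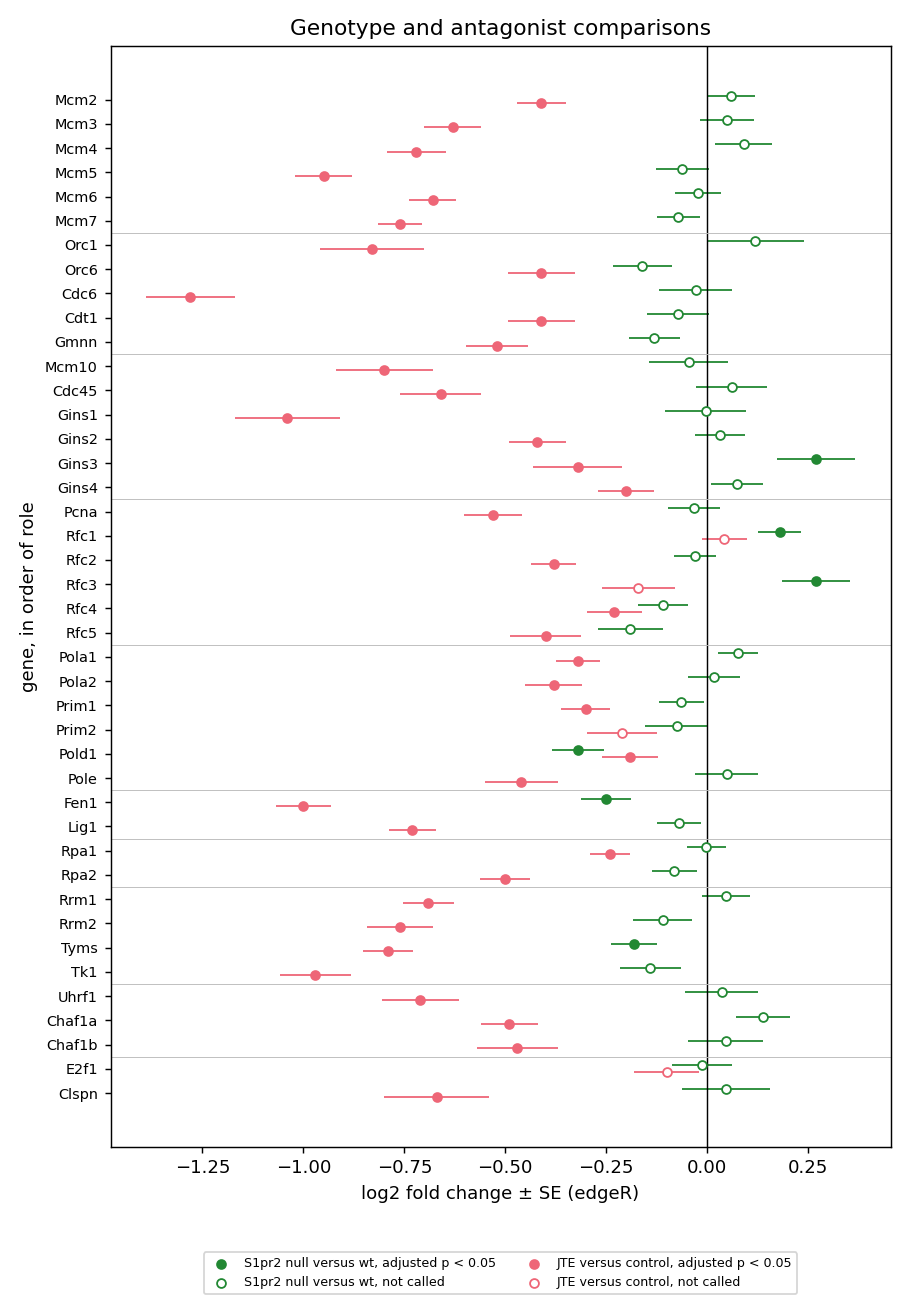
Log2 fold change with its SE for each of the 42 genes (rows, in order of role) in the libraries labelled S1pr2 null against wt (green) and in JTE against control explants (red), with filled points for an adjusted p below 0.05. The green points lie between -0.32 (Pold1) and 0.27 (Rfc3), and the red points between -1.28 (Cdc6) and 0.04 (Rfc1).

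Lagging-strand fragments are trimmed by the flap nuclease Fen1 and joined by DNA ligase Lig1. Fen1 had 1226, 1340.0 and 1253 normalised reads in the wt libraries and 1094, 1092 and 1029.7 in those labelled S1pr2 null. Control explants held 885, 943 and 934, JTE explants 479, 471 and 429, and JTE + CTGF explants 397, 483 and 429. Fen1 was lower with JTE at -1.0 ± 0.068 (SE, adjusted p = 4.55e-09) and lower in the libraries labelled S1pr2 null at -0.25 ± 0.062 (SE, adjusted p = 0.00719), with no overlap of the groups in either comparison. Tmem258 and Gm10143 on the opposite strand cover 84.2% of the counted exon bases of Fen1. The libraries were prepared strand-specifically according to the paper, but the counts cannot tell the strands apart if counting did not use the strand. Lig1 had 2679.9, 2667 and 2847 normalised reads in the wt libraries and 2551, 2623 and 2631 in those labelled S1pr2 null. Control explants held 1573, 1526 and 1616, JTE explants 977, 917 and 951, and JTE + CTGF explants 792, 952 and 859.9. Lig1 was lower with JTE at -0.73 ± 0.058 (SE, adjusted p = 3.22e-08), and the JTE and JTE + CTGF libraries overlapped. Of the single-strand binding protein, Rpa1 and Rpa2 belonged to the set. Rpa2 had 1078, 1071 and 1019 normalised reads in the wt libraries and 1032, 982 and 982 in those labelled S1pr2 null. Control explants held 642, 596 and 673, JTE explants 457, 444 and 451, and JTE + CTGF explants 401, 465 and 431. Rpa2 was lower with JTE at -0.50 ± 0.062 (SE, adjusted p = 4.17e-06), and Rpa1 at -0.24. Levels per kilobase in wt were 561 for Lig1, 526 for Fen1, 353 for Rpa2 and 313 for Rpa1.

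All 4 deoxynucleotide synthesis genes were lower with JTE. Rrm2, the regulated small subunit of ribonucleotide reductase, had the deepest step from fresh pancreas to explant of the 42 genes. Rrm2 had 1945, 2083 and 2001 normalised reads in the wt libraries and 1937, 1818 and 1819 in those labelled S1pr2 null. Control explants held 761, 802 and 836, JTE explants 496, 458 and 464, and JTE + CTGF explants 296, 417 and 360.1. Its levels fell from group to group in the explants with no overlap. The log2 fold change was -1.33 ± 0.076 (SE, adjusted p = 2.87e-10) for control explants against wt, -0.76 ± 0.082 (SE, adjusted p = 9.85e-07) for JTE against control and -0.40 ± 0.089 (SE, adjusted p = 0.0026) for CTGF added to JTE. Rrm1, the large subunit, was lower with JTE at -0.69, and with CTGF added it was at -0.12, called only without JTE + CTGF library 2 (adjusted p = 0.046). Tyms had 1399.8, 1441 and 1460.2 normalised reads in the wt libraries and 1304, 1310.3 and 1195 in those labelled S1pr2 null. Control explants held 933, 947 and 964, JTE explants 582, 540.1 and 527, and JTE + CTGF explants 480.2, 566 and 553. Tyms, thymidylate synthase, was lower with JTE at -0.79 ± 0.062 (SE, adjusted p = 2.85e-08) and lower in the libraries labelled S1pr2 null at -0.18 ± 0.057 (SE, adjusted p = 0.0323). The latter call was lost without wt library 2 (adjusted p = 0.0865), wt library 3 (adjusted p = 0.104) or null library 3 (adjusted p = 0.157). Tk1 had 938, 992 and 943 normalised reads in the wt libraries and 904, 856 and 849 in those labelled S1pr2 null. Control explants held 523, 534 and 607, JTE explants 297, 281 and 274, and JTE + CTGF explants 226, 310.3 and 289. Tk1, the S-phase thymidine kinase of the salvage route, was lower with JTE at -0.97 ± 0.088 (SE, adjusted p = 1.46e-07) and overlapped between JTE and JTE + CTGF. Per kilobase in wt, Rrm1 had 742, Rrm2 725, Tyms 235 and Tk1 184 normalised reads.

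Chromatin is rebuilt behind the fork, where Uhrf1 brings the maintenance DNA methyltransferase to hemimethylated DNA and the Chaf1a and Chaf1b subunits of CAF-1 deposit histones. Uhrf1 had 3087, 3194 and 3283 normalised reads in the wt libraries and 3335, 3327 and 3146 in those labelled S1pr2 null. Control explants held 1894, 1822 and 2208, JTE explants 1285, 1106 and 1218, and JTE + CTGF explants 587, 829 and 648. Uhrf1 had the largest fall of the set with CTGF, -0.81 ± 0.1 (SE, adjusted p = 1.83e-05) against JTE, and the largest against control, -1.52 ± 0.1 (SE, adjusted p = 2.03e-09). The 3 explant groups did not overlap, and JTE alone was at -0.71 ± 0.095 (SE, adjusted p = 8.79e-06). Chaf1b had 711, 606 and 640.0 normalised reads in the wt libraries and 720.3, 695 and 609.9 in those labelled S1pr2 null. Control explants held 408, 430.3 and 472, JTE explants 313, 266 and 363, and JTE + CTGF explants 281, 307 and 271. Chaf1b was lower with JTE at -0.47 ± 0.1 (SE, adjusted p = 0.00102), and its JTE and JTE + CTGF libraries overlapped. Chaf1a was lower with JTE at -0.49 and with CTGF added at -0.29, the latter not called without JTE library 3 (adjusted p = 0.0785). Other genes share 15.4% of the 50-base words of Uhrf1 and 49.7% of those of Chaf1a. Per kilobase in wt, Uhrf1 had 749, Chaf1a 489 and Chaf1b 130.5 normalised reads.

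E2f1, the activator E2F that drives many of these genes, was not called under the antagonist. E2f1 had 567, 596 and 620.3 normalised reads in the wt libraries and 621, 584 and 564 in those labelled S1pr2 null. Control explants held 402, 398 and 463, JTE explants 421, 360.4 and 394, and JTE + CTGF explants 381, 413 and 449. The 3 explant groups overlapped throughout. Its log2 fold change was -0.10 ± 0.081 (SE, adjusted p = 0.297) for JTE, -0.02 ± 0.082 (SE, adjusted p = 0.813) for JTE + CTGF against control and -0.50 ± 0.078 (SE, adjusted p = 3.68e-05) for control explants against wt, and only the last of these was called. Clspn had 721, 778 and 846 normalised reads in the wt libraries and 858, 806 and 759.7 in those labelled S1pr2 null. Control explants held 389.6, 374 and 504, JTE explants 286, 212 and 296, and JTE + CTGF explants 165, 192 and 156. Clspn (claspin), the adaptor of the replication checkpoint, was lower with JTE at -0.67 ± 0.13 (SE, adjusted p = 0.000257) and lower again with CTGF at -0.63 ± 0.14 (SE, adjusted p = 0.00302). Explant groups did not overlap for Clspn. E2f1 had 188 and Clspn 109 normalised reads per kilobase in wt.

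**Figure D4:**
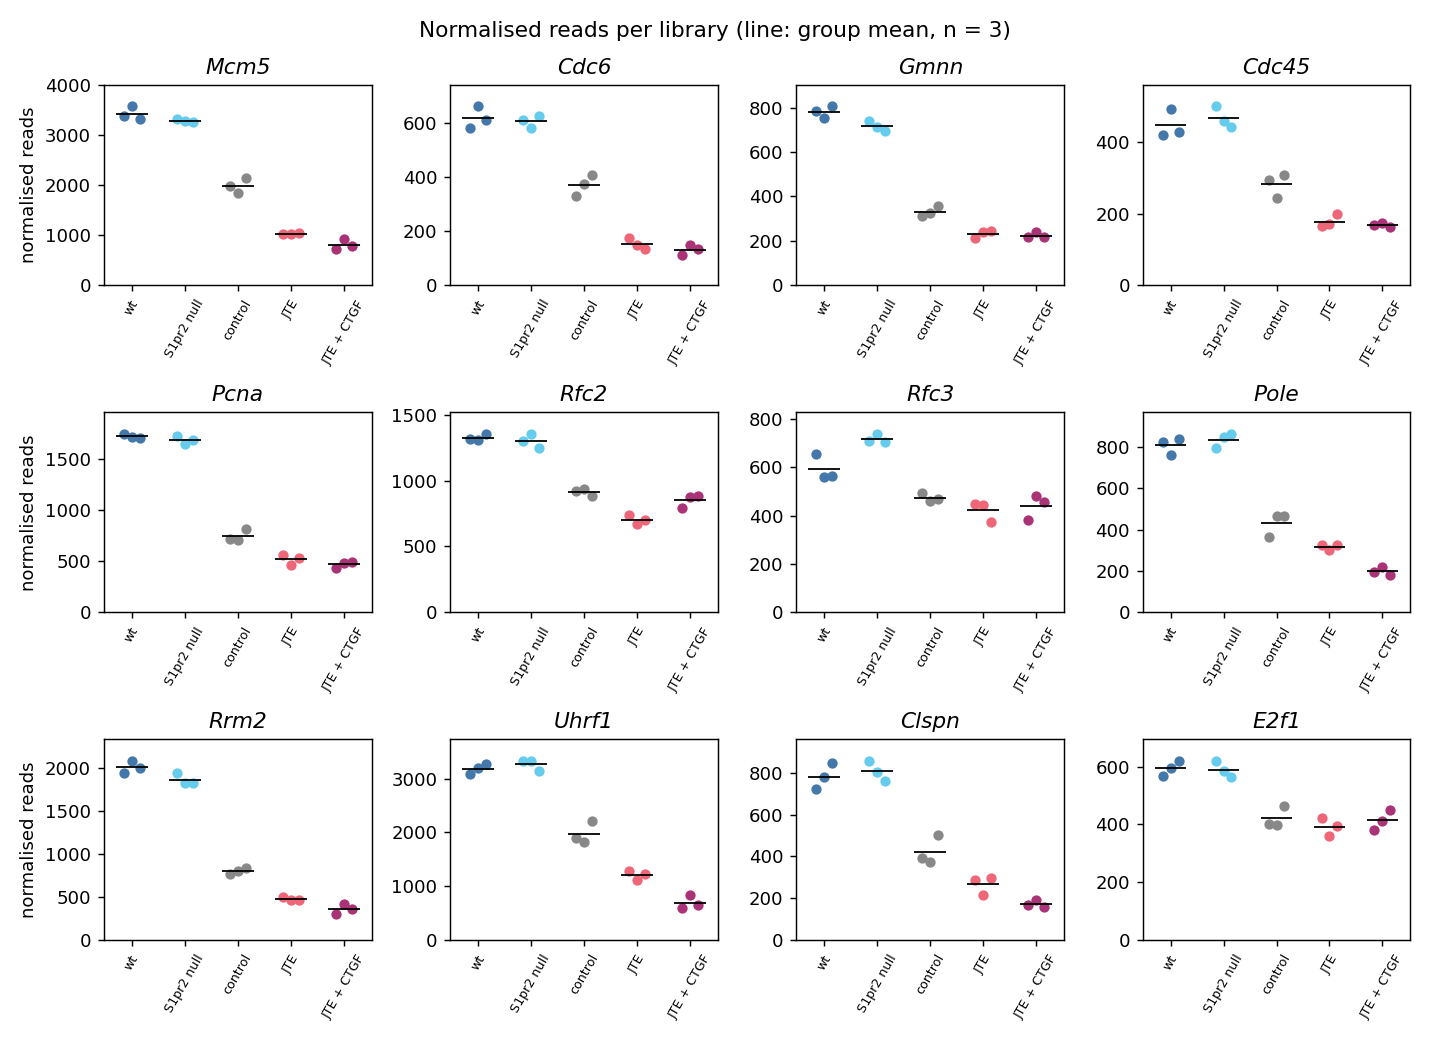
Normalised reads per library (points) and group means (lines, n = 3) of 12 of the genes, 1 panel per gene, each on its own linear axis from 0. Cdc6 goes from 330.2 to 407 in control to 135 to 175 with JTE, Uhrf1 and Pole step down again with CTGF, Rfc2 steps up with CTGF, and E2f1 overlaps in all explant groups.

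In the comparison of JTE with control explants, the median log2 fold change of the 42 genes was -0.50, against 0.00 over all genes tested. Leaving out 1 library gave medians from -0.55 (without JTE library 3, 37 genes lower) to -0.44 (without control library 3, 37 genes lower). Without JTE library 2, 36 genes were lower and the median was -0.445. The 4 genes that were not called were Rfc1, Rfc3, Prim2 and E2f1, with 95% intervals within -0.39 and 0.16. The 3 libraries of each group did not overlap in 39 of the 42 genes, against 56.7% of all genes tested. By the criterion of the study, which asks for an adjusted p up to 0.1, at least 1 group mean over 100 and a fold outside 0.6 to 1.6, the count was 10 genes, all lower, against 9.23% of 14518 protein-coding genes in either direction. Here and below these cut-offs were applied to the adjusted p of edgeR and to the normalised reads, whereas the study used DESeq2. By role, the medians were -0.87 for the 2 lagging-strand genes, -0.77 for the 4 of nucleotide synthesis, -0.70 for the 6 of the helicase and -0.54 for the 6 of helicase activation. They were -0.52 for the 5 licensing genes, -0.49 for the 3 of chromatin and -0.37 for the 2 of single-strand binding. Both the clamp with its loader (6 genes) and the polymerases and primase (6 genes) had -0.31. The 14 genes with E2F letters had a median of -0.68 (13 lower), and the 20 genes with a window and no such letters -0.48 (18 lower). Rfc3, with 2 matches, was not called with JTE. For control explants against wt the medians were -0.62 with letters (12 lower) and -0.65 without (20 lower). In the libraries labelled S1pr2 null they were 0.007 and -0.039. JTE + CTGF gave -0.21 and -0.082 against JTE, and -0.85 and -0.64 against control. The JTE difference minus the null difference gave -0.67 and -0.48. Whether genes with and without the letters differ was not tested. All 8 markers of mitotic cells (such as Mki67 and Cdk1) were also lower with JTE, with summed levels of 10484 to 11234 normalised reads in control and 6477 to 7111 with JTE. Leukocyte markers were lower in 7 of 7 (sums 4009 to 4699 in control, 1894 to 2470 with JTE) and endothelial markers in 5 of 6 (5766 to 7022, 4296 to 4839), with no marker of either list at 0 in a group. Of 10 epithelial markers 5 were lower and 1 higher (sums 108739 to 138007 in control, 102027 to 186526 with JTE). Of 8 mesenchymal markers 3 were lower and 2 higher (132538 to 139460, 141714 to 174316). The mitochondrial share of reads was 1.32% to 1.5% in the JTE libraries and 1.03% to 1.17% in control. The part of these markers and of that share in the result was not tested.

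For the genotype, the 42 genes had a median of -0.017, against -0.012 over all genes, and 6 genes were called. The count was 2 without wt library 2 or 3, 3 without null library 2 or 3, and 10 in a fit of these 6 libraries alone. Calls over all genes moved too, from 4199 in the main fit to 2809 and 3158 without wt library 2 and 3. They were 3106 and 3210 without null library 2 and 3, and 5388 in the fit of these 6 libraries. The genes higher were Rfc3, Gins3 and Rfc1, of the clamp loader and the helicase activators, and the genes lower were Pold1, Fen1 and Tyms. The 95% intervals of the 36 genes not called lay within -0.36 and 0.37. Groups did not overlap for 19 of the 42 genes, against 46.3% of all genes, and 0 genes met the criterion of the study (3.37% of protein-coding genes did). At an unadjusted p below 0.05, 4 genes were higher and 5 lower. DESeq2 called 2 higher and 3 lower, and 3803 of all genes in either direction. Erythroid marker sums were 9519 to 11786 in wt and 14067 to 19421 in the libraries labelled S1pr2 null, and those of pancreatic epithelium 49111 to 62548 and 31673 to 33061, with no marker of either list at 0 in a group. Of the 10 erythroid markers 3 were higher and 1 lower, with a median of -0.12, and of the 10 epithelial markers 6 were lower. Mesenchymal sums were 139389 to 141574 in wt and 110421 to 130208 in the libraries labelled S1pr2 null, with 4 of 8 markers lower and 2 higher. Sums of the mitotic markers were 20156 to 21392 in wt and 19167 to 19676 in the libraries labelled S1pr2 null. Of these 8 markers 2 were lower and 0 higher, with a median of -0.10. Their part in these small differences was not tested.

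The difference between both responses was tested directly as JTE minus control, minus the difference between the libraries labelled S1pr2 null and wt. It was negative and called for 35 of the 42 genes (21.5% of all genes were called lower), with a median of -0.51 against 0.0043 over all genes. It was called higher for 0 of the 42 genes, while 21.5% of all genes were called higher. The count of members higher was also 0 at an unadjusted p below 0.05 and with DESeq2. The largest differences were those of Cdc6 at -1.25 ± 0.14 (SE, adjusted p = 3.24e-06), Gins1 at -1.03 ± 0.17 (SE, adjusted p = 0.000112) and Orc1 at -0.95 ± 0.18 (SE, adjusted p = 0.000368). Orc6, Rfc1, Rfc4, Rfc5, Prim2, Pold1 and E2f1 were not called, and Pold1 had the one positive value, 0.14 (95% interval -0.06 to 0.33). Without JTE library 3, 35 genes were negative and called, with a median of -0.51. In the same contrast leukocyte markers were lower in 7 of 7 (median -1.3), endothelial markers in 5 of 6 (-0.48) and mitotic markers in 7 of 8 (-0.49), and their part in the result was not tested. Genotype against antagonist and fresh pancreas against cultured explant cannot be told apart in this contrast.

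Control explants against wt gave a median of -0.65 over the 42 genes, against -0.023 over all genes. Culture, age and the dissection of dorsal buds cannot be told apart in this comparison. Rrm2, Gmnn and Pcna fell most, and Orc1 and Gins3 were not called. Groups did not overlap for 41 of the 42 genes, against 63.8% of all genes, and 14 genes met the criterion of the study (13.6% of protein-coding genes in either direction). All 8 mitotic markers were lower, with sums of 20156 to 21392 in wt and 10484 to 11234 in control explants. Erythroid markers were lower in 9 of 10, from sums of 9519 to 11786 down to 242 to 483, and leukocyte markers were higher in 6 of 7. Epithelial sums were 49111 to 62548 in wt and 108739 to 138007 in control explants, with 5 of 10 markers higher and 1 lower. No marker of these lists was at 0 in a group. The part of these cells in the result was not tested.

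CTGF added to JTE gave a median of -0.11 over the 42 genes against -0.0022 over all genes. Without JTE library 3 the median was -0.052, with 10 genes lower and 2 higher. The 12 genes lower were Mcm2, Mcm4, Mcm5, Mcm7, Gins2, Rfc1, Pola1, Pole, Rrm2, Uhrf1, Chaf1a and Clspn, and Rfc2 was higher. The Gins2 call was lost without JTE + CTGF library 1 (adjusted p = 0.0756). The licensing genes were not called, with values between -0.22 (Cdc6) and 0.17 (Orc6), and by the unadjusted p over the whole set 17 genes were lower and 2 higher, while DESeq2 called 12 lower and 1 higher. Groups did not overlap in 13 of the 42 genes, against 40.2% of all genes, and 1 gene met the criterion of the study (1.96% of protein-coding genes did). Against control, JTE + CTGF had a median of -0.74 (-0.032 over all genes), with Uhrf1, Cdc6 (-1.50) and Clspn (-1.30) at the lower end. Rfc2, Rfc3, Rfc4 and E2f1 were not called there, groups did not overlap in 38 of the 42 genes (64.8% of all genes), and 21 genes met the criterion of the study (13.2% of protein-coding genes). DESeq2 called 36 genes lower, without Prim2 (adjusted p = 0.0949) and Gins4 (adjusted p = 0.0958). The calls of Prim2 and Gins4 were each lost in 7 of 12 alternatives, that of Rfc5 in 3 and that of Orc6 in 2. Rfc1 and Pold1 each lost theirs in 1. Mitotic markers were lower in 3 of 8 against JTE and in 8 of 8 against control, with sums of 4788 to 6084 in JTE + CTGF. Erythroid markers were higher in 3 of 10 against JTE, with sums of 235 to 594 with JTE and 899 to 1253 with JTE + CTGF. Against control, leukocyte markers were lower in 7 of 7 (median -1.0, sums 1803 to 2513 in JTE + CTGF) and endothelial markers in 5 of 6 (median -0.45, sums 4004 to 4736). Of 10 epithelial markers 6 were lower and 2 higher against control (sums 108739 to 138007 in control, 158745 to 179445 in JTE + CTGF). Neural crest and Schwann markers had sums of 1547 to 1696 with JTE and 1233 to 1404 with JTE + CTGF, with 1 of 6 lower and 0 higher against JTE. The part of these lists in the results was not tested.

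**Figure D5:**
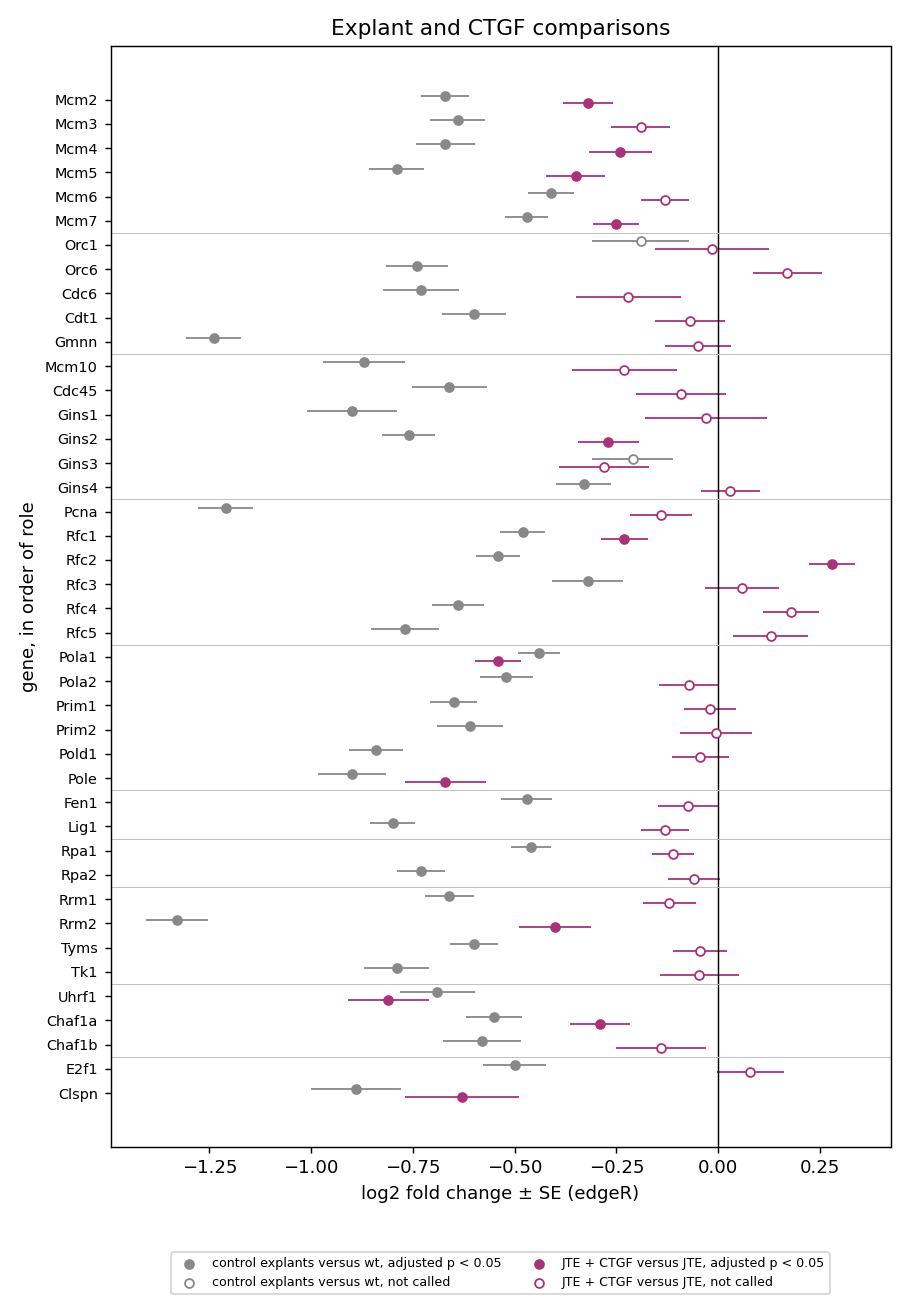
Log2 fold change with its SE for each of the 42 genes (rows, in order of role) in control explants against wt (grey) and in JTE + CTGF against JTE (purple), with filled points for an adjusted p below 0.05. The grey points run from -1.33 (Rrm2) to -0.19 (Orc1), and the purple points from -0.81 (Uhrf1) to 0.28 (Rfc2).

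Further genes of the same pathways were followed in 4 lists. Of 32 other replication factors, 15 were lower and 6 higher with JTE, where 26.2% of all genes were lower and 25.9% higher. In control explants against wt 27 were lower (29.3% of all genes), and with CTGF added 11 were lower and 2 higher (16.8% and 13.6%). Of 10 genes of chromatin replication and histone supply, 9 were lower with JTE. The 28 tested of 29 other nucleotide synthesis genes were mixed with JTE, with 11 lower and 7 higher, as were the 14 E2F and pocket protein genes, with 5 lower and 6 higher. In the libraries labelled S1pr2 null, 9 of the 28 nucleotide synthesis genes were lower (13.3% of all genes).

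Within these lists the largest rise with JTE was that of Mthfd2, a mitochondrial enzyme of folate metabolism, at 1.98 ± 0.064 (log2, SE, adjusted p = 9.24e-13), with 2711 ± 66.2 against 688 ± 61.2 normalised reads (SD, n = 3). Rrm2b, the small ribonucleotide reductase subunit used outside S phase, rose by 1.0 ± 0.083 (log2, SE, adjusted p = 4.72e-08), with 323 ± 14.3 against 161 ± 11.7 normalised reads (SD, n = 3), opposite in direction to Rrm2. The largest falls were those of the activator E2f2, -1.21 ± 0.14 (log2, SE, adjusted p = 2.08e-06), with 85.5 ± 19.4 against 197 ± 4.26 normalised reads (SD, n = 3), and of Rnaseh2b, a subunit of the nuclease that removes ribonucleotides, -0.91 ± 0.13 (log2, SE, adjusted p = 1.33e-05), with 112 ± 17.9 against 209.8 ± 25.6 normalised reads (SD, n = 3). Mthfd2 was lower in the libraries labelled S1pr2 null, -0.44 ± 0.075 (log2, SE, adjusted p = 0.00042), with 276 ± 22.1 against 374 ± 14.9 normalised reads (SD, n = 3), as was Shmt2, a further mitochondrial folate enzyme, -0.42 ± 0.062 (log2, SE, adjusted p = 0.000135), with 1182 ± 49.4 against 1580.3 ± 141.0 normalised reads (SD, n = 3). The values that follow are log2 fold changes with their SE, each with an adjusted p below 0.05 by edgeR. In the same comparison E2f5 was higher at 0.36 ± 0.099 and E2f6 at 0.29 ± 0.076. With CTGF added to JTE, Ticrr, which helps to load Cdc45, was lower at -0.72 ± 0.097 and the repressor E2f7 at -0.65 ± 0.1. Impdh2, of guanine nucleotide synthesis, was higher at 0.39 ± 0.084 and Rpa3 at 0.29 ± 0.094. JTE + CTGF against control gave E2f7 at -1.54 ± 0.095, E2f2 at -1.34 ± 0.15, Pold4 at 0.90 ± 0.12 and Mthfd2 at 2.07 ± 0.064. In control explants against wt, the nuclease Dna2 (-1.21 ± 0.092) and the dUTPase Dut (-1.07 ± 0.061) were lowest, and Rb1 (0.58 ± 0.089) and Mthfd2 (0.88 ± 0.07) highest. The difference between both responses was largest for Mthfd2 (2.42 ± 0.098), Rrm2b (1.32 ± 0.12), E2f7 (-0.97 ± 0.11) and E2f2 (-0.86 ± 0.18).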

How the data were processed

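RNA of 15 libraries was sequenced single-end. The authors aligned the reads to mm10 and deposited, per Ensembl gene, the raw read count of uniquely aligned reads from featureCounts 1.4.6 (version from the submitters' processing notes). The counts were not normalised. The paper describes a strand-specific library preparation, and strand use in counting was not stated. Groups and replicate numbers came from the sample titles. Tests used edgeR 4.0.16 in R 4.3.3, by its quasi-likelihood F-test (TMM factors, filterByExpr, 1 coefficient per group, all 15 libraries, two-sided), with Benjamini-Hochberg adjustment over 16245 genes. The members and lists were chosen with earlier results of these data known. The genes given with values in every library were the 3 called members with the largest rise and the 3 with the largest fall in each comparison, plus members fixed for each role. From the 4 other lists, the 2 called genes with the largest rise and the 2 with the largest fall were named. Overlap with other genes was computed from GENCODE M21 exons and from shared 50-base words. The alternatives were DESeq2 1.42.0, RLE size factors, library totals without factors, no filter, libraries of 1 comparison, a replicate block, leaving out each library, and the criterion of the study. Deviations of same-numbered libraries correlated at over 0.1 for 2 of the 3 control and JTE pairs (0.148 and 0.248) and for none of the others, so numbers were not treated as pairs. Total counts of 11402804 to 13828737 reads per library limit precision for genes with few reads. No column was left out. Python 3.11.15 with pandas 2.3.3 and matplotlib 3.10.9 served for tables and plots.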

Additional observations from a re-analysis of the deposited data

Results flagged for a closer look

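The response to JTE differed from that of the libraries labelled S1pr2 null for 35 of the 42 genes, by the edgeR test of the difference itself (log2, JTE minus control, minus null minus wt). Every such value was negative, and each shares the control libraries and the wt libraries with the comparisons of the report. For the helicase subunits the difference was -0.47 (Mcm2), -0.68 (Mcm3), -0.81 (Mcm4), -0.89 (Mcm5), -0.66 (Mcm6) and -0.69 (Mcm7). The licensing genes differed by -0.95 (Orc1), -1.25 (Cdc6), -0.33 (Cdt1) and -0.39 (Gmnn). Among the helicase activators it was -0.75 (Mcm10), -0.72 (Cdc45), -1.03 (Gins1), -0.46 (Gins2), -0.59 (Gins3) and -0.28 (Gins4). For the clamp and its loader it came to -0.49 (Pcna), -0.35 (Rfc2) and -0.44 (Rfc3). Polymerase and primase genes gave -0.40 (Pola1), -0.40 (Pola2), -0.24 (Prim1) and -0.50 (Pole). The lagging-strand genes stood at -0.76 (Fen1) and -0.66 (Lig1). Single-strand binding genes were at -0.24 (Rpa1) and -0.42 (Rpa2). Nucleotide synthesis genes showed -0.74 (Rrm1), -0.65 (Rrm2), -0.61 (Tyms) and -0.83 (Tk1). For the chromatin genes it amounted to -0.75 (Uhrf1), -0.64 (Chaf1a) and -0.52 (Chaf1b). The checkpoint adaptor had -0.72 (Clspn). The calls of Cdt1, Prim1 and Gins4 were lost under some alternatives, most of which left out 1 library: Cdt1 in 4 of 18 alternatives (adjusted p up to 0.0779), Prim1 in 8 of 18 (up to 0.104) and Gins4 in 6 of 18 (up to 0.0787).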

How the results depend on the processing

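Of 3276 recomputed values of single members, 3174 stayed on their side of the threshold, 76 lost a call and 26 gained one. In 54 of the 3174, called in neither fit, the sign changed. In the libraries labelled S1pr2 null, 10 genes were called (6 lower) with the libraries of that comparison alone, and 0 met the criterion of the study. Leaving out 1 library there gave 2 to 5 calls (2 without wt library 2 or 3, 3 without null library 2 or 3), 0 to 2 of them higher and 2 to 3 lower. Over all genes there were 5388 calls with the libraries of that comparison alone and 2809 to 3893 on leaving out 1 library, against 4199 in the main fit. The criterion of the study gave 10 genes for JTE against control, 1 for JTE + CTGF against JTE, 21 for JTE + CTGF against control and 14 for control explants against wt. For JTE + CTGF against JTE, 2 genes were higher with RLE size factors and 1 to 3 on leaving out 1 library (2 without JTE library 3, 3 without JTE + CTGF library 1), and 10 to 17 lower. Leaving out 1 library gave 36 to 39 genes lower for JTE against control, 34 to 38 for JTE + CTGF against control, 40 to 40 for control explants against wt and 32 to 35 for the difference between responses. Over all genes, calls in either direction were then 7776 to 8062, 9047 to 9455, 8476 to 8910 and 6270 to 7172, in that order. For JTE + CTGF against JTE they were 3362 to 4848. With library totals only, the median for control explants against wt was -0.80. Without the 10 genes that share over 10% of words or exon bases with others, an alternative chosen after seeing the data, 8 of 32 were called for JTE + CTGF against JTE and 28 of 32 for JTE against control. With the replicate block, 38 genes were called for JTE against control, 5 for the libraries labelled S1pr2 null (Gins3 lost, adjusted p = 0.0668) and 14 for JTE + CTGF against JTE (Mcm3 gained, adjusted p = 0.047), and in no comparison did every library correlate best with its own number (at most 3 of 6). The cause of these shifts was not tested. Depth limits genes with few reads, such as Orc1 with 50 in its lowest library.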
